A study of Mus musculus with 4 samples.

Results

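Mesenchymal identity was described here through 10 genes of cultured mouse mammary fibroblasts: the transcription factors *Twist1*, *Twist2*, *Prrx1*, *Snai1*, *Snai2*, *Zeb1* and *Zeb2*, and the fibroblast proteins *Vim*, *Fap* and *Thy1*. They were chosen by name, as a check of whether fibroblast identity was kept across the genotypes. All 10 were measured, on 25 of the 34958 probe sets that carry exactly 1 gene symbol. These probe sets cover 18194 genes. Each genotype had 1 array, and there were 4 arrays in all. Fibroblasts came from the mammary glands of 16-week-old female FVB/N mice and were grown to the second passage after gravity separation. Normal fibroblasts with *Ets2* were from Ets2db/loxP mice and normal *Ets2* null fibroblasts from FspCre;Ets2db/loxP mice. *ErbB2* fibroblasts with *Ets2* were from ErbB2;Ets2db/loxP mice, and *ErbB2* fibroblasts without it from ErbB2;Fsp-cre;Ets2db/loxP mice. All of these animals, controls included, carry the db allele, a conventional *Ets2* knockout of the DNA-binding domain, beside the loxP allele that Cre removes. Cre is driven by the promoter of fibroblast-specific protein (*Fsp*) and so acts only in cells that use it, while the MMTV-driven *ErbB2* oncogene acts in the epithelium, not in the fibroblasts themselves. The sources used here do not say whether animals were pooled for an array.

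Epithelial-mesenchymal transition (EMT) is the program by which epithelial cells lose their junctions and take on the shape and motility of mesenchymal cells. The Snail proteins (*Snai1*, *Snai2*) and the Zeb proteins bind E-box sequences in the promoters of junction genes such as E-cadherin and repress them. The Twist proteins are basic helix-loop-helix factors that act with E proteins, and *Prrx1* is a homeobox factor of embryonic mesenchyme. Fibroblasts are mesenchymal from the start, so the genes are taken here as markers of identity and activation rather than of a transition. Whether other cells in the culture added to their signal was not tested.

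The Snail family also acts on its own promoters through the E-box. In normal fibroblasts *Snai1* had the largest *Ets2* difference of the 7 transcription factors, while in *ErbB2* fibroblasts that of *Snai2* was the largest. The bases upstream of the *Snai1* start site are shown. They lie at chr2:167537945-167538194 on the plus strand (RefSeq start site, GRCm38.p6), with the E-box in capitals.
Snai1: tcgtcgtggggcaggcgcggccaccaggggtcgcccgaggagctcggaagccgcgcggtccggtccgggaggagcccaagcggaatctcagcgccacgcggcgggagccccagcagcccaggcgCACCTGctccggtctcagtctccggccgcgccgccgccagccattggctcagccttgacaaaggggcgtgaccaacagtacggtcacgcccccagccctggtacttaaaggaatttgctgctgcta
The capitals spell the reverse complement of CAGGTG and begin at position -126, counted from the start site as 0. Windows from 250 bases before to 50 bases after a start site were given for 6 of the 10 genes, 9 windows in all, of which 4 belong to *Zeb2*. On either strand, CAGGTG was in 1 of these 9 windows and in 20.2% of the 32851 windows of all genes. The looser E-box CANNTG, which includes the former, was in the same 1 of 9 windows against 72.3% of all windows. CCGGAAG, a longer ETS motif, was in 0 of 9 and in 8.86% of all. The shorter ETS core GGAA, which the *Snai1* sequence above holds, was not counted. A match is a description of the letters and not a binding site, and a window without a match says only that these letters are not in it. *Fap*, *Thy1*, *Snai2* and *Zeb1* were not searched.

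The values are log2 expression made by RMA. Array medians lay between 5.51 and 5.54, the share of probe sets at log2 6 or more was 42.5% to 42.8%, and arrays correlated over all probe sets at Pearson's r of 0.988 to 0.993. The brightest *Ets2* probe set read 8.14 in the normal control, 8.35 in the normal null, 8.34 in the *ErbB2* control and 8.31 in the *ErbB2* null array. The sources used here do not place it inside or outside the deleted exons, so it does not check the genotypes. With 1 array per genotype there was no replicate spread, no test was made, and each difference describes these arrays only. A rule of size was used in its place: a log2 difference over 1 (2-fold), and one over 2 (4-fold), the size in the study's methods. Values under log2 6 were not shown to be above background, and a difference that ends there is not exact. Of the 25 member probe sets, 21 had a mean at log2 6 or more and 20 were at 6 or more on every array. The 4 with a lower mean were secondary probe sets of *Prrx1*, *Zeb1* and *Zeb2*. In RNA from a whole culture, fewer cells of a type and less RNA per cell cannot be told apart.

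The brightest probe sets of the 7 transcription factors were above log2 6 in all 4 arrays. The range over the arrays was below the median of all probe sets, 0.334, for *Twist1*, *Prrx1* and *Zeb2*, and above it for *Twist2*, *Snai1*, *Snai2* and *Zeb1*. Values below are given in the order normal with *Ets2*, normal *Ets2* null, *ErbB2* with *Ets2* and *ErbB2* *Ets2* null. *Twist1*, which is required for mesenchyme of the head and limb, read 8.32, 8.42, 8.53 and 8.48. The 4 values span 0.217, and 76.8% of all singly named probe sets had a range at least as wide. *Twist2*, its close relative, active in dermal mesenchyme, read 9.76, 10.02, 9.70 and 9.42. The null array was the higher of the normal and the lower of the *ErbB2* arrays, with log2 differences for *Ets2* null minus present of 0.26 and -0.28. The difference between the *Ets2* null arrays, *ErbB2* minus normal, was -0.60, and 5.71% of probe sets differed by as much.

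*Prrx1*, a homeobox gene of limb and connective tissue mesenchyme, had 6 probe sets. The brightest read 10.86, 10.79, 10.67 and 10.70. Its normal arrays stood above its *ErbB2* arrays, with *ErbB2* minus normal differences of -0.20 with *Ets2* and -0.09 without. In the *Ets2* null arrays all 6 *Prrx1* probe sets were lower in *ErbB2* fibroblasts, by -0.30 to -0.00, and with *Ets2* this held for 5 of 6. The differences in the *Ets2* null arrays were small, of sizes that 23.4% to 99.6% of all probe sets reached. The widest range, 0.490, belonged to a probe set that read 9.25, 9.61, 9.12 and 9.32. The dimmest lay between 3.26 and 3.51, where background is not separated from signal.

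The 2 Snail genes had different patterns. *Snai1* read 8.50, 7.61, 8.01 and 7.69 on its only probe set. Both arrays with *Ets2* stood above both *Ets2* null arrays. The null-minus-present difference was -0.89 in normal fibroblasts, a size of 1.85-fold that 1.17% of probe sets reached, and -0.32 in *ErbB2* fibroblasts, a size that 28.2% reached. *Snai2* (Slug), the Snail protein of neural crest and of basal mammary cells, read 10.00, 9.95, 9.89 and 10.57 on the brighter probe set and 7.66, 7.48, 7.36 and 7.86 on the other. On both, the *ErbB2* *Ets2* null array was the highest and the *ErbB2* array with *Ets2* the lowest. The difference in *ErbB2* fibroblasts was 0.69 (1.61-fold) on the brighter probe set, which may cross-hybridise by its name, and 0.50 on the other, sizes that 5.19% and 12.0% of probe sets reached. In normal fibroblasts these differences were -0.05 and -0.18. The order of arrays was the same on both *Snai2* probe sets.

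*Zeb1* and *Zeb2* are zinc finger repressors that also bind E-boxes. *Zeb1* read 9.02, 8.94, 8.89 and 8.66, lowest in the *ErbB2* *Ets2* null array, where the difference from the array with *Ets2* was -0.24. Its range was 0.364, and 44.0% of probe sets had a range at least as wide. Its other 3 probe sets did not share one direction: in normal fibroblasts the 4 differences ran from -0.56 to 0.30, and the lowest of these was on a probe set under log2 6 throughout. *Zeb2* read 8.12, 7.97, 8.09 and 7.97. Its range was 0.155, and 88.7% of probe sets had a range at least as wide. In *ErbB2* fibroblasts all 5 *Zeb2* probe sets were lower without *Ets2*, by -0.55 to -0.03, and the largest of these differences was again on the probe set under log2 6. Probe sets of a gene read the same RNA and are not replicates.

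*Vim* encodes vimentin, the intermediate filament protein by which mesenchymal cells are commonly stained. It read 14.05, 14.06, 13.97 and 14.05 on the brightest probe set, a range of 0.0917. Of all probe sets, 96.9% had a range at least as wide. This probe set is near the top of the scale, with 32 probe sets of the array (0.0710%) brighter on average, and whether its signal still tracks RNA there was not tested. The other 2 *Vim* probe sets were not level. They read 12.63, 12.20, 12.28 and 12.13, and 12.63, 12.19, 12.32 and 11.99. On both, the normal array with *Ets2* was the highest and the *ErbB2* *Ets2* null array the lowest, and the normal difference was -0.43 and -0.44. About 10.0% and 9.29% of probe sets differed by as much, so the 3 *Vim* probe sets disagree on whether *Vim* was lower without *Ets2* in normal fibroblasts. In *ErbB2* fibroblasts they also disagreed, at 0.08 on the brightest and -0.16 and -0.33 on the other 2.

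*Thy1* encodes CD90, a surface glycoprotein used to sort fibroblasts. It read 10.29, 10.30, 10.63 and 10.24. The *ErbB2* array with *Ets2* stood above the other 3, which lay between 10.24 and 10.30. The difference in *ErbB2* fibroblasts was -0.39, and 20.3% of probe sets differed by as much.

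*Fap* was the member that varied most. It encodes fibroblast activation protein, a surface serine protease of activated and tumor-associated fibroblasts. Its only probe set read 6.83, 5.85, 7.62 and 7.79. Both *ErbB2* arrays stood above both normal arrays, and the normal *Ets2* null array, below log2 6, was the lowest. Without *Ets2*, *Fap* differed by -0.98 (1.97-fold) in normal and by 0.17 in *ErbB2* fibroblasts, and 0.844% and 54.2% of probe sets differed by as much. In the *ErbB2* minus normal comparison the difference was 0.79 (1.72-fold) with *Ets2* and 1.94 (3.83-fold) without, sizes that 1.65% and 0.252% of probe sets reached. The range over the arrays was 1.94, and 0.549% of probe sets had one as wide. Since the normal *Ets2* null value is under log2 6, the 1.97-fold and 3.83-fold sizes are not exact.

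**Figure D1:**
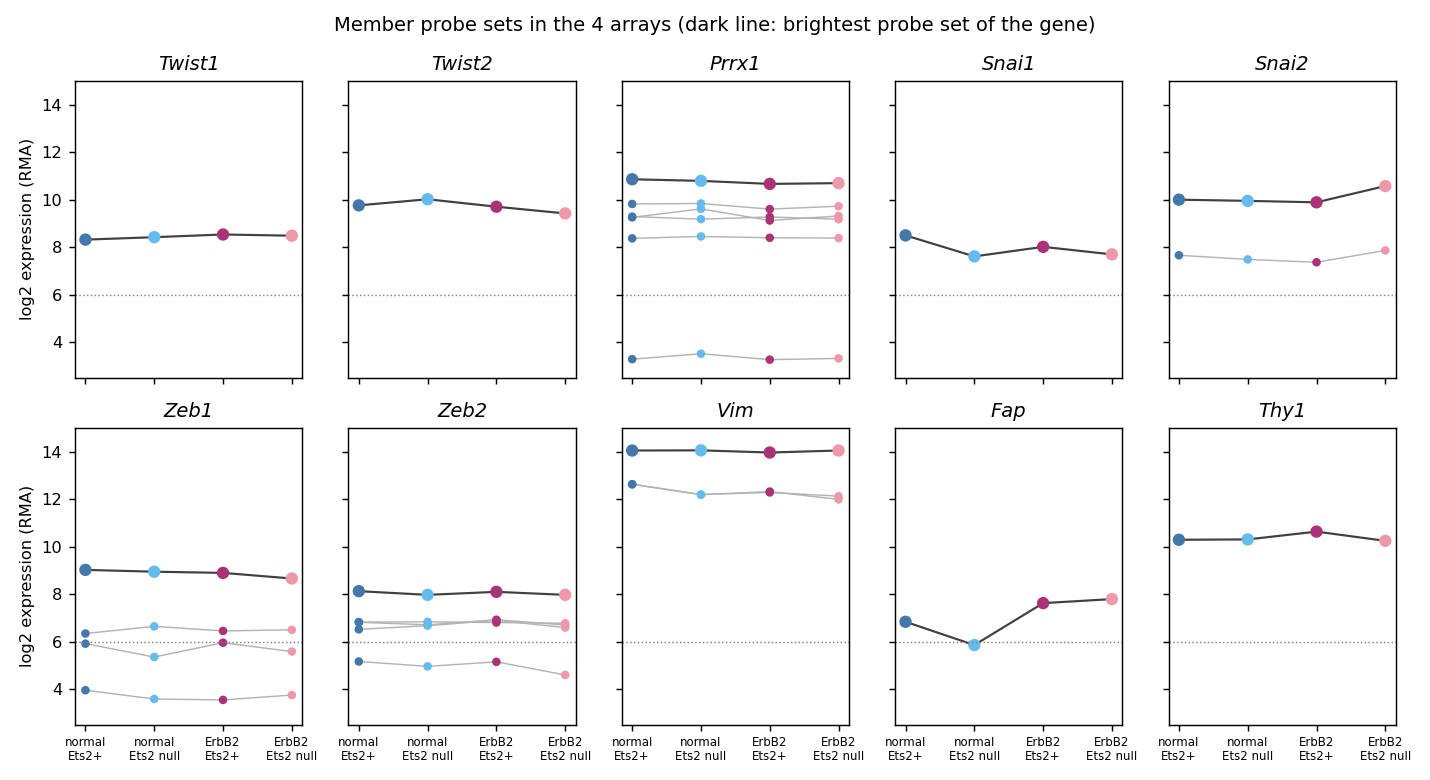
Log2 expression (RMA) of every probe set of the 10 genes in the 4 arrays, 1 array per genotype, with the brightest probe set of each gene on a dark line and the others in gray. The lines only join values of 1 probe set, the dotted line is log2 6, and *Fap* (5.85 to 7.79) and *Snai1* (7.61 to 8.50) show the widest ranges on brightest probe sets.

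No member probe set passed 2-fold in either *Ets2* comparison. In normal fibroblasts 0 of 25 passed 2-fold and 0 passed 4-fold, while 0.804% and 0.0830% of all singly named probe sets did. In *ErbB2* fibroblasts the members again gave 0 and 0, against 1.90% and 0.286%. So few probe sets passed at all that the zeros do not set the members apart. At a smaller size, 22 of 25 differed by less than 0.5 in normal fibroblasts, and 22 of 25 in *ErbB2* fibroblasts, where 93.3% and 88.0% of all probe sets did. The median over the 10 genes, by brightest probe set, was -0.06 in normal and -0.09 in *ErbB2* fibroblasts, where the medians of all genes were -0.00 and 0.04. A lower value without *Ets2* was seen in 6 of the 10 genes in each comparison, beside 50.5% of all genes in normal and 44.2% in *ErbB2* fibroblasts. *Snai1*, *Zeb1* and *Zeb2* were lower in both. *Fap*, *Prrx1* and *Snai2* were lower in normal fibroblasts and higher in *ErbB2* fibroblasts, and *Twist1*, *Twist2* and *Thy1* the other way round. *Vim* was higher in both on its brightest probe set, by 0.01 and 0.08, while its other 2 probe sets were lower in both. The small differences of *Prrx1* and *Vim* in both comparisons, and of *Twist1* in *ErbB2* fibroblasts, changed sign under another scaling or choice of probe set.

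**Figure D2:**
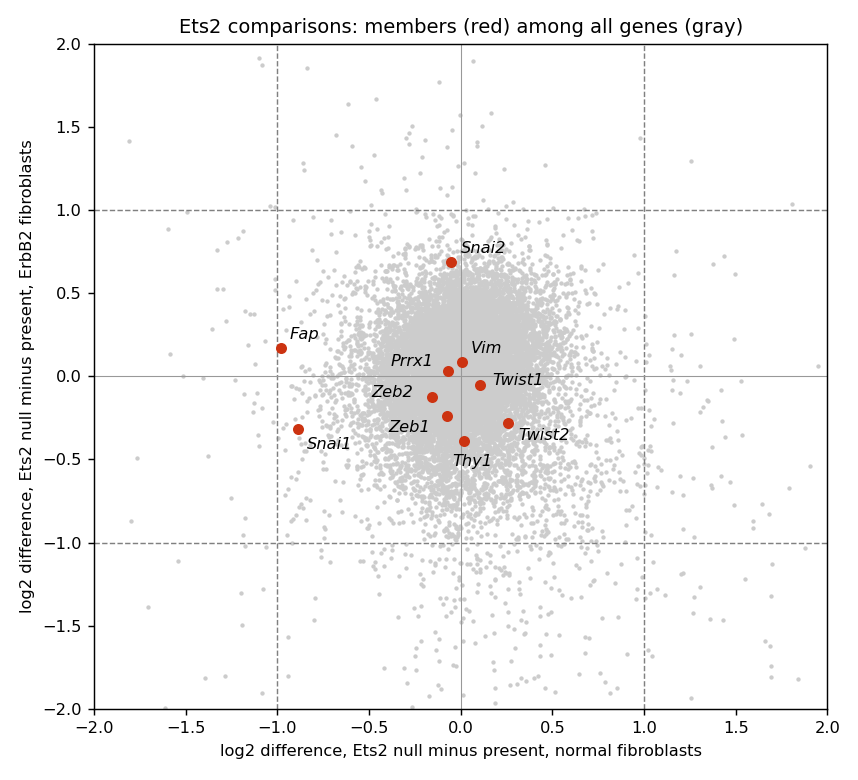
Log2 difference, *Ets2* null minus present, with normal fibroblasts on the x axis and *ErbB2* fibroblasts on the y axis, for 18194 genes by brightest probe set, of which 75 lie outside the axes. Members are red, dashed lines mark 2-fold, and *Fap* and *Snai1* lie farthest left, at -0.98 and -0.89, and *Snai2* highest, at 0.69.

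The oncogene comparisons use the same 4 arrays as the *Ets2* comparisons, so they are not independent of them. With *Ets2* present, *ErbB2* minus normal, 0 of the 25 member probe sets passed 2-fold and 0 passed 4-fold, against 0.824% and 0.0887% of all. In the *Ets2* null arrays 1 of 25 passed 2-fold, that of *Fap*, and 0 passed 4-fold, against 1.77% and 0.229%. Of the 25 probe sets, 17 were lower in *ErbB2* fibroblasts with *Ets2* present and 18 were lower in the *Ets2* null arrays, beside 51.1% and 46.1% of all singly named probe sets. By brightest probe set these were 7 and 6 of the 10 genes, beside 53.5% and 45.1% of all genes. The median over the genes was -0.07 and -0.00, beside -0.02 and 0.03 for all genes. *Fap* was the highest member in both, at 0.79 and 1.94. The lowest was *Snai1* with *Ets2*, at -0.48, and *Twist2* without, at -0.60. Over the 25 probe sets, the highest value was in the normal arrays for 9 (with *Ets2*) and 8 (null) and in the *ErbB2* arrays for 5 and 3, where an array held the highest value for 21.2% to 30.8% of all singly named probe sets, the *ErbB2* *Ets2* null array the most. The lowest value was in the normal arrays for 4 and 3 and in the *ErbB2* arrays for 8 and 10, where an array held the lowest for 21.9% to 28.7% of all, the *ErbB2* array with *Ets2* the most. Many of these probe sets read the same gene.

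**Figure D3:**
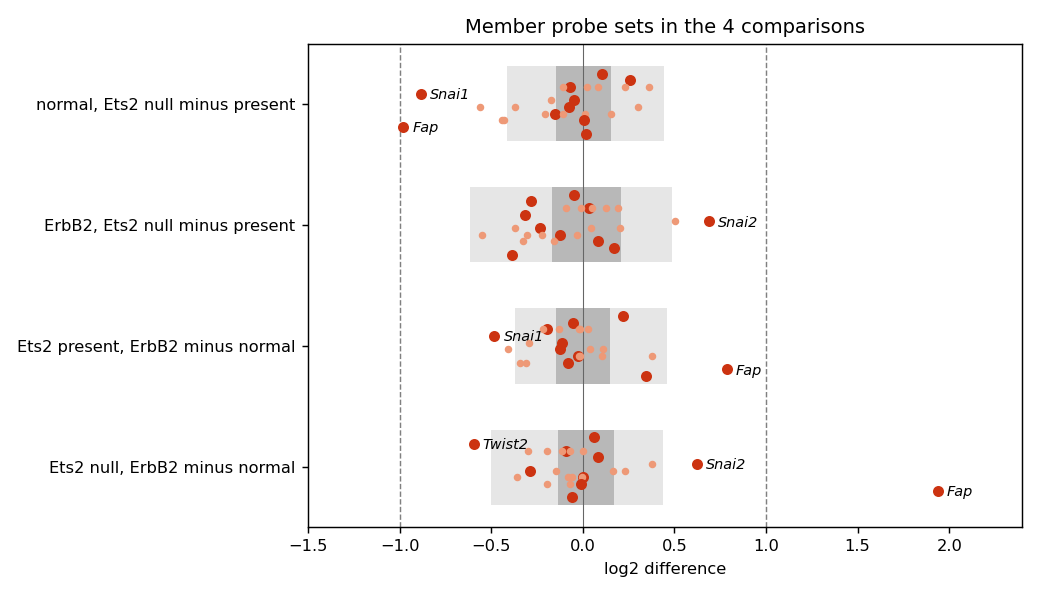
Log2 differences of the 25 member probe sets in the 4 comparisons, with large points for the brightest probe set of each gene, gray bars for all singly named probe sets (dark between the quartiles, light from percentile 5 to 95) and dashed lines at 2-fold. *Fap* at 1.94 in the *Ets2* null arrays is the only point past a dashed line.

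The range over the 4 arrays sums up how level the members were. It was under 0.5 in 16 of 25 member probe sets (64%), and in 76.7% of all singly named probe sets. It was over 1 in 1 of 25 (4%), and in 3.54% of all. The median range was 0.378 for the members and 0.334 for all. By these counts the members were not more level than probe sets at large. On brightest probe sets, *Vim* (near the top of the scale), *Zeb2*, *Prrx1* and *Twist1* had ranges of 0.0917, 0.155, 0.195 and 0.217, below the median of all probe sets. *Zeb1* and *Thy1* followed at 0.364 and 0.389. *Twist2*, *Snai2*, *Snai1* and *Fap* had ranges of 0.597, 0.686, 0.886 and 1.94.

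The genes whose 4 values were most like those of *Fap* were found by the root mean square distance of the values after each gene's own mean was subtracted, over the 4 arrays and among 10362 genes with a mean at log2 6 or more. The nearest was *Mfap4*, a microfibril-associated matrix protein, at a distance of 0.121, and it read 6.77, 5.81, 7.27 and 7.68. *Pamr1* and *Cpxm1*, a peptidase-domain protein and a carboxypeptidase-like protein, followed at 0.210 and 0.219. No gene lay within 0.1 of *Fap*. For *Snai1*, 11 genes lay within 0.1. *Hnrnpd*, an RNA-binding protein that acts on mRNA decay, was at 0.0641, *Tst*, a mitochondrial sulfurtransferase, at 0.0650 and *Irx1*, a homeobox factor, at 0.0652. With 4 arrays such likeness is a description, and it carries no test.

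**Figure D4:**
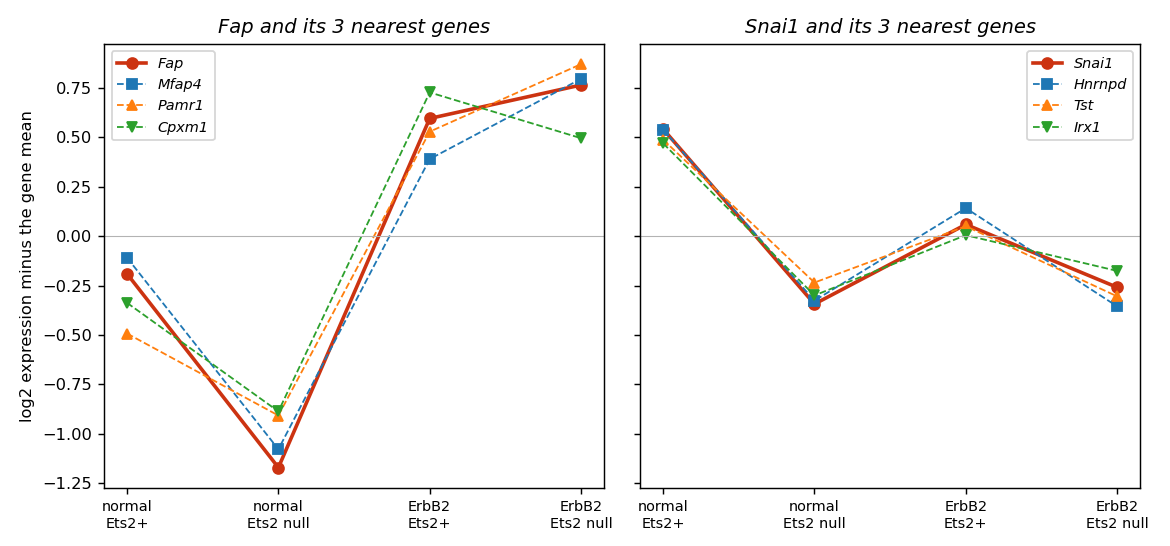
Log2 expression minus the mean of each gene over the 4 arrays, for *Fap* (left) and *Snai1* (right) and the 3 genes nearest to each. *Fap* and *Mfap4* are lowest in the normal *Ets2* null array and highest in the *ErbB2* *Ets2* null array, and *Snai1* and its neighbours are highest in the normal array with *Ets2*.

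Most genes that act with the members, or mark the same cells, also differed by less than 2-fold, but so did most genes at large. The share of partners past 2-fold was above that of all genes in both *Ets2* comparisons. Of 51 listed partners (E proteins, corepressors, TGF-beta genes, cadherins, matrix and integrin genes), 48 were measured, 42 of them with a mean at log2 6 or more. In normal fibroblasts 2 were more than 2-fold higher without *Ets2* and 1 lower, where 0.621% of all genes were higher and 0.357% lower, and the median was -0.07. The higher ones were *Id2*, an inhibitor of E proteins (8.55 and 9.59 with and without *Ets2*), and *Prrx2*, the relative of *Prrx1* (8.77 and 9.79). The lower was *Tgfb1*, a main inducer of EMT (8.98 and 7.88). In *ErbB2* fibroblasts 0 were higher and 4 lower, where 0.341% of all genes were higher and 1.74% lower, and the median was -0.09. These were *Id2* (10.13 and 8.44), *Tgfb2* (9.32 and 7.87), the fibronectin receptor subunit *Itga5* (9.93 and 8.71) and the matrix glycoprotein *Tnc* (12.70 and 11.60), the last named after its values were seen. Chosen in the same way, the mesenchymal cadherin *Cdh2* read 8.34, 8.40, 7.90 and 8.39 in the 4 arrays and fibronectin, *Fn1*, 13.67, 13.47, 13.55 and 13.86. *S100a4* encodes fibroblast-specific protein, whose promoter drives Cre here, and it read 13.73, 14.08, 13.49 and 13.34, so it was bright in all 4 arrays.

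The label of fibroblasts was checked against fibroblast genes, of which 29 of 31 were measured and 28 had a mean at log2 6 or more. *S100a4* is also on this list. *Col1a1*, the main fibrillar collagen, read 13.71, 13.10, 13.76 and 13.58, and *Pdgfra*, a receptor of fibroblasts, 10.36, 9.95, 9.87 and 10.50, both named after their values were seen. In normal fibroblasts 0.621% of all genes were more than 2-fold higher without *Ets2* and 0.357% lower, with a median of -0.00. In *ErbB2* fibroblasts these shares were 0.341% and 1.74%, with a median of 0.04. Of the listed fibroblast genes, 0 were more than 2-fold higher and 2 lower in each comparison, with medians of -0.35 in normal and -0.16 in *ErbB2* fibroblasts. In normal fibroblasts these were *Col3a1* (13.62 and 12.48) and *Lum*, a collagen-binding proteoglycan (7.77 and 6.71), and *Mfap4* was next at -0.97. In *ErbB2* fibroblasts they were *Cthrc1* (11.17 and 9.45) and *Lum* (9.47 and 8.45). The summed linear signal of the list, with the normal array with *Ets2* set to 1, was 0.846, 1.08 and 0.985 in the other arrays. This sum and *Fap* were both lowest in the normal *Ets2* null array.

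Epithelial genes, some of which Snail and Zeb proteins repress, had medians on opposite sides of 0 in the 2 *Ets2* comparisons. Of 42 listed, 40 were measured, and 17 of these were under log2 6 on every array. *Cdh1* (E-cadherin), the textbook target of these repressors, was among them at 3.17, 4.55, 5.26 and 2.84, and it is named after its values were seen. In normal fibroblasts 10 of 40 were more than 2-fold higher without *Ets2* and 0 lower (all genes 0.621% and 0.357%), median 0.26. In *ErbB2* fibroblasts 0 were higher and 11 lower (all genes 0.341% and 1.74%), with a median of -0.37. Keratins led both: *Krt18* read 5.21, 8.78, 8.52 and 5.01 in the 4 arrays, and *Krt8* read 6.65, 9.73, 9.25 and 6.15. The summed signal of the list relative to the normal array with *Ets2* was 1.83, 1.61 and 0.862 in the other arrays. Beside these sums, the *Ets2* null minus present difference of *Snai1* was -0.89 in normal and -0.32 in *ErbB2* fibroblasts, and that of *Snai2*, on its brighter probe set, -0.05 and 0.69. In normal fibroblasts both genes were on the other side from the epithelial sum, *Snai2* by a size that 81.2% of probe sets reached. In *ErbB2* fibroblasts *Snai2* was on the other side and *Snai1* on the same. By brightest probe set, *Zeb1* (-0.08 and -0.24) and *Zeb2* (-0.16 and -0.13) were lower in both comparisons. They were thus on the other side in normal and on the same side in *ErbB2* fibroblasts. The part of the Snail and Zeb genes in the epithelial differences, and that of epithelial cells in the culture, was not tested.

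Markers of other cell types a mammary culture can hold were also uneven. Past 2-fold, 0.621% of all genes were higher and 0.357% lower in normal fibroblasts, and 0.341% higher and 1.74% lower in *ErbB2* fibroblasts. Myeloid markers, all 22 measured and 19 with a mean at log2 6 or more, had 0 higher and 1 lower past 2-fold in normal fibroblasts, and 0 higher and 14 lower in *ErbB2* fibroblasts, with medians of -0.29 and -1.46. Their summed signal relative to the normal array with *Ets2* was 0.821, 1.94 and 0.738, highest in the *ErbB2* array with *Ets2*, and *Ctss*, a lysosomal protease of macrophages, read 11.49 and 8.99 in *ErbB2* fibroblasts with and without *Ets2*. *Thy1* and *Twist1* were also highest in that array, though by far smaller amounts, *Twist1* at 8.53 beside 8.48 in the *ErbB2* *Ets2* null array. By brightest probe set the other members were not highest there, and *Prrx1*, *Snai2* and *Vim* were lowest there. Skeletal muscle markers (17 measured) had 1 higher and 4 lower in normal and 0 higher and 10 lower in *ErbB2* fibroblasts, with medians of -0.62 and -1.45. Their summed signal was 1.59, 1.30 and 0.445 in the other arrays, so in normal fibroblasts the sum was higher and the median lower without *Ets2*. *Acta1*, a bright muscle actin named after its values were seen, read 10.34 and 11.89 there. Endothelial markers (15 measured) had 0 higher and 4 lower, and 0 higher and 2 lower, with medians of -0.60 and -0.46 and sums of 0.625, 0.864 and 0.591. Smooth muscle, pericyte and myofibroblast markers (15 measured) had 1 higher and 1 lower, and 0 higher and 2 lower, with medians of 0.17 and -0.38 and sums of 1.10, 0.965 and 0.793. Adipocyte markers (10 measured) had 1 higher in normal fibroblasts and none else past 2-fold, with sums of 1.48, 1.34 and 1.33. Lymphoid markers (13 measured) had 0 in either, with 9 of them under log2 6 on every array and sums of 1.04, 0.942 and 1.01. What part the mix of cells had in the values of the members was not tested.

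**Figure D5:**
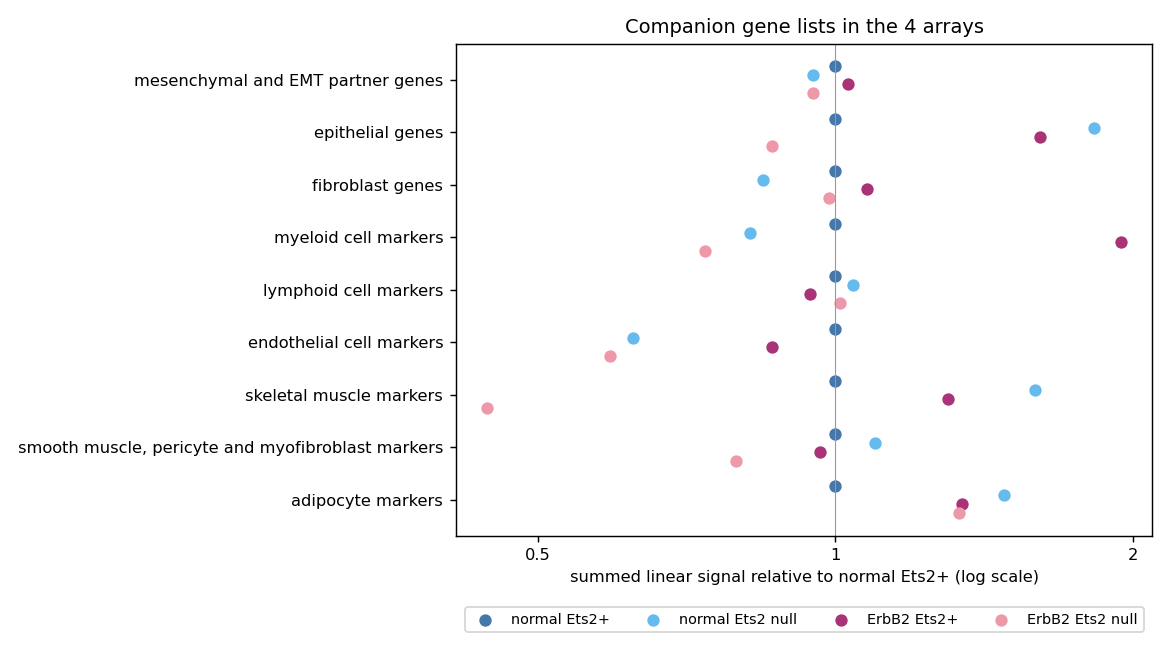
Summed linear signal of each gene list relative to the normal array with *Ets2* (log axis), 1 point per array. The partner list stays between 0.950 and 1.03, while the epithelial list runs from 0.862 to 1.83, the myeloid list from 0.738 to 1.94 and the skeletal muscle list from 0.445 to 1.59. A linear sum is set mostly by the brightest genes of a list, such as the partner *Sparc* (14.50, 14.37, 14.52 and 14.44). A level sum therefore does not show that the dimmer genes were level, and some partners passed 2-fold.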

How the data were processed

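RNA of cultured mammary fibroblasts was hybridised to Affymetrix mouse genome arrays, 1 per genotype. The authors deposited log2 values made with RMA, which corrects background, quantile-normalizes arrays and summarises each probe set and therefore hides a shift common to most genes. The sources used here name no version of it. All 45101 probe sets were read, of which 34958 had 1 symbol in the platform annotation, 932 had several and 9211 were unnamed here. Array differences were taken in Python 3.11.15 (pandas 2.3.3, numpy 2.4.6) and drawn with matplotlib 3.10.9. The scripts were tested on simulated data. For 1 value per gene, the probe set with the highest mean was used.

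The members, the 9 companion lists and the tests were chosen with earlier results of these data known. All members were named, with the 3 largest differences per list and Ets2 comparison among genes whose higher value is at log2 6 or more as the pool of list genes (only those that bear on the members are printed), the 3 genes nearest to each of the 2 members with the widest range, and *Ets2*. Alternatives were median centring, quantile normalization, a floor at log2 6, dropping probe sets whose names mark cross-hybridisation (_x_at, _s_at), 8-fold in place of 4-fold, other choices of probe set per gene, and the mean over members. Upstream sequence came from RefSeq (GRCm38.p6). Precision is limited by the number of arrays.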

Additional observations from a re-analysis of the deposited data

Results flagged for a closer look

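*Fap* was on opposite sides of 0 in the Ets2 comparisons, at -0.98 in normal and 0.17 in *ErbB2* fibroblasts. The difference between these values was 1.15 on the log2 scale. It rests on 4 arrays, the normal *Ets2* null value (5.85) is under log2 6, and the difference was not tested.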

How the results depend on the processing

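The counts of member probe sets past 2-fold, 4-fold or 8-fold were within 1.5 times the main count under 35 of 36 alternatives. The exception was normal fibroblasts, where quantile normalization gave 1 probe set past 2-fold in place of 0, with *Fap* at -1.01 in place of -0.98. All 28 alternative medians moved by less than the robust SD of their comparison (0.216 to 0.275 over all probe sets), and so did 197 of 200 differences of single genes. The others were *Vim* in normal fibroblasts (-0.29 as the mean of its probe sets), *Snai2* in the *Ets2* null arrays (0.38 without the probe set that may cross-hybridise) and *Zeb1* in the *Ets2* null arrays (-0.01 as the mean). Small differences changed sign in 8 cases, all of them within 0.09 of 0 at first. The 2 scalings moved a gene by at most 0.115. No paired analysis was possible because each genotype has 1 array, and for the same reason no array could be left out.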

Other observations

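A few partner genes of the EMT factors differed by array in ways not described above, and they were picked with their values in view. Among the inhibitors of E proteins, *Id1* read 9.66, 10.43, 9.99 and 9.33 in normal with *Ets2*, normal *Ets2* null, *ErbB2* with *Ets2* and *ErbB2* *Ets2* null, and *Id3* read 10.79, 11.26, 11.48 and 10.69. Like *Id2*, both were higher without *Ets2* in normal and lower without it in *ErbB2* fibroblasts. The summed signal of epithelial genes was also high in the same arrays, at 1, 1.83, 1.61 and 0.862 in that order, and its part in these values was not tested. Their E protein partners were closer to level, with *Tcf3* at 8.74, 8.49, 8.63 and 8.68 and *Tcf12* at 9.24, 9.05, 9.52 and 9.34.

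*Hmga2*, a chromatin protein of embryonic and mesenchymal cells, read 8.93, 9.69, 7.94 and 7.94, so both *ErbB2* arrays stood below both normal arrays. *Postn*, the matrix protein periostin, read 13.36, 12.63, 13.53 and 13.74 and was lowest in the normal *Ets2* null array, as *Fap* was. With 1 array per genotype none of these differences was tested.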
